A study of Mus musculus with 8 samples.

Results

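Kidney RNA of homozygous Umod A227T mutant mice was set against a wild-type RNA pool on 2-colour cDNA arrays. The comparison rested on 4 of the 8 samples and 8 of the 16 arrays of the series, chosen by their genotype label. Each of the 4 samples was the whole kidney of 1 male mouse carrying the A227T allele, which arose by ENU mutagenesis on the C3HeB/FeJ background. Every mouse was hybridised on 2 arrays with the dyes exchanged, against 1 pool of wild-type males that the labels describe as RNA of 6 control animals. The labels give an age of 19 without a unit for mutant and pool, and the study's methods give an age in weeks that is slightly lower. The other 4 samples were heterozygous Umod C93F males with a label age of 39 and a wild-type pool of their own, and they enter only the last comparison below.

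Uromodulin, a filament-forming urinary glycoprotein, is made in the thick ascending limb, the water-tight segment of Henle's loop that drives urine concentration. Its many disulphide bonds form in the endoplasmic reticulum (ER). Mutant uromodulin that folds poorly is held back in the ER, and the dominant kidney disease that follows is marked by tubular damage, interstitial fibrosis and inflammation. The study's histology did not find fibrosis or inflammatory infiltrates in young adult homozygous A227T mice, and it describes their disease as initial. The array reads RNA of the whole organ, so fewer cells of a type and less RNA per cell cannot be told apart.

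The arrays carried 20750 distinct cDNA clones, called elements here. Of these, 9295 were at least 2 times above local background in 1 channel on both arrays of at least 3 mice and were tested, and 6402 of them carried a gene name (5262 genes). Between 56.8% and 74.0% of the spots of an array passed that limit. Values are log2 ratios of mutant over wild-type pool, averaged over the dye swap of a mouse, so that 1 is a doubling. The mean over 4 mice was tested against 0 with limma and Benjamini-Hochberg adjustment over all 9295 elements. An element was called when its adjusted p was under 0.10 and its change exceeded 1.4-fold. In counts of list members, rose and fell mean an adjusted p under 0.10 in that direction at any fold. Since the wild-type side was 1 pool, the test covers the spread among mutant mice and leaves out the spread among wild-type animals. Direction is likely rather than settled. It follows the submitters' processed ratios and the legends of the study's tables, while a literal reading of the dyes in the scans' names would turn every sign. In the study, RT-qPCR of other homozygous A227T mice found more Scd1 and less Wfdc15b transcript than in wild type, the signs used here. Hba-a1, lower on the arrays, did not differ by genotype in that RT-qPCR.

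The kidney markers Kap, an androgen-driven proximal tubule protein, and Umod were detected in both channels on all 8 arrays. The dyes left a mark of their own on the ratios. Before averaging, the 2 dye orientations of a mouse correlated at -0.18 to 0.04 across elements, arrays of the same orientation from different mice at 0.28 to 0.52, and 2447 elements (26.3%) had a dye effect at an adjusted p under 0.10 in a fit with a dye term. After averaging the dye swaps, the ratios of different mice correlated at 0.28 to 0.43 across elements, which share the pool and are not independent.

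Umod itself did not pass the test. Its log2 ratio was -0.14, 0.07, -0.10 and -0.10 in mice 1 to 4, a mean of -0.07 ± 0.09 (SD, n = 4) and an adjusted p of 0.656 by limma. The 4 mice lay on both sides of the pool, and the mean was 0.07 with median centring and 0.01 in the submitters' processed ratios. The array does not read the A227T substitution, so this value does not check the genotype.

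Of the 9295 elements, 169 (1.82%) were called, 75 higher (0.807%) and 94 lower (1.01%) in mutant kidney. The sign was the same in all 4 mice for 167 of the 169, against 28.1% of all tested elements. A call requires a mean far from 0 for its spread, so this agreement follows largely from the selection. The calls were set almost entirely by the fold limit, which 171 elements passed at any p. Without it, 1002 elements (10.8%) had an adjusted p under 0.10, 577 higher (6.21%) and 425 lower (4.57%), so that small shifts were more frequent upwards. The split between higher and lower depended on scaling: it was 143 higher and 60 lower with median centring of each array, and 139 higher and 106 lower in the submitters' processed ratios. The wild-type channel was detected on all 8 arrays for 117 of the 169 called elements, and on fewer arrays for the others. Of the called elements, 89 stand in neither of the study's gene tables.

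**Figure D1:**
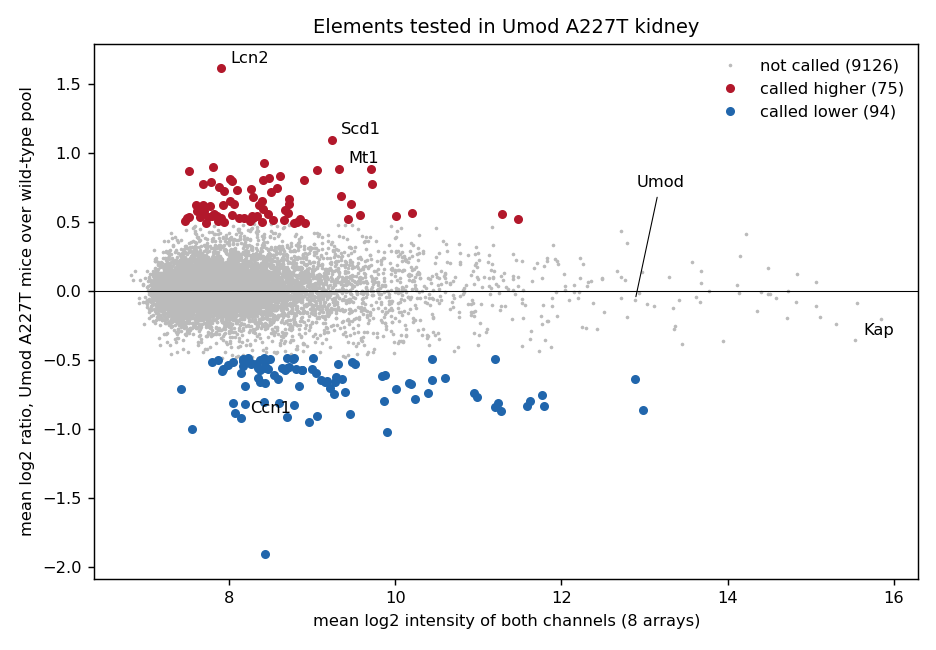
Mean log2 ratio of Umod A227T mice over the wild-type pool (vertical) against the mean log2 intensity of both channels (horizontal) for the 9295 tested elements. Red points are the 75 called higher, blue points the 94 called lower and grey points the rest, with Lcn2 at 1.61 the highest and an unnamed element at -1.91 the lowest.

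The largest rise was that of Lcn2, which encodes neutrophil gelatinase-associated lipocalin, an iron-siderophore carrier released by injured tubules. Its log2 ratio was 1.78, 1.57, 1.71 and 1.38 in mice 1 to 4, with a mean of 1.61 ± 0.18 (SD, n = 4), which is 3.05-fold (adjusted p = 4.22e-07 by limma). All 4 mice lay more than 2-fold above the pool. The mutant channel reached the detection limit on all 8 arrays and the wild-type channel on 3, so the fold rests on a dim wild-type signal.

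Other tubular injury genes rose with it. Over all 5262 named genes 6.58% rose and 4.48% fell, and 52 were called higher and 63 lower, the background for this and later lists. Of 22 tested members of the tubular injury list, 12 rose and none fell, while 5 lay below 0 without passing. In that list 7 were called higher. The list median was 0.24, against 0.01 for all named genes. The tubular injury median was 0.16 with no limit on dim spots and 0.55 at 3 times background. Wfdc2, a secreted WAP-domain protein of distal epithelia, read 1.07, 0.75, 0.56 and 0.83 in mice 1 to 4. Lgals3, the galectin-3 gene of epithelia and macrophages, read 0.95, 0.73, 0.59 and 0.60. Cd24a, a surface glycoprotein of immature and regenerating tubule, was narrow among mice at 0.66, 0.68, 0.52 and 0.65. S100a11 and S100a6, calcium-binding proteins of epithelial cells, averaged 0.55 and 0.53 and were called higher. Prom1, a membrane protein of progenitor-like tubule cells, rose to 0.48 and Timp1, an inhibitor of matrix proteases, to 0.35 below the fold limit, while another Timp1 element averaged -0.10. The S100a6 call ended without background correction (0.47) and with print-tip loess (0.49), and its wild-type channel was detected on 5 of 8 arrays. Sox9 and Krt8, which mark regenerating tubule, and Plin2, a lipid droplet coat protein, averaged -0.12, -0.04 and -0.13 and did not pass.

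The annexins and S100 proteins, which bind calcium and membranes, lay mostly above 0. Of 15 tested members 14 lay above 0, 9 rose and 3 were called, with a list median of 0.26, and 0.15 with no limit on dim spots. Anxa1, Anxa2, Anxa3, S100a6, S100a10 and S100a11 also belong to the tubular injury list. The S100a6 and S100a11 calls were counted there too, so the lists are not separate groups. Anxa5 averaged 0.51 and was called, but read 0.47 without mouse 1 and 0.47 without background correction, short of the fold limit. Anxa4 (0.41), Anxa6 (0.33), Anxa1 (0.29) and S100g (0.32) passed the test below the fold limit. Calm3, 1 of the calmodulin genes, was called at 0.55 from a bright element, while its other 3 elements averaged 0.15, 0.08 and -0.11.

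Genes of the extracellular matrix formed the other large rising group at the RNA level. Matrix deposition was not measured here, and the study did not find fibrosis in young adult homozygous A227T kidney. Of 26 tested genes 23 lay above 0, 13 rose, 1 fell and 5 were called higher, with a median of 0.23. The median of this extracellular matrix list was 0.10 with no limit on dim spots and 0.34 at 3 times background. Fn1, the gene of fibronectin, read 1.0, 0.95, 0.86 and 0.89 in mice 1 to 4, a mean of 0.93 ± 0.06 (SD, n = 4; adjusted p = 3.37e-05 by limma). A further Fn1 element was called at 0.62, with the wild-type channel detected on 5 of 8 arrays, and another averaged 0.04. Col3a1, the type III collagen gene, read 1.0, 0.58, 0.69 and 0.94. Col1a1, a chain of type I collagen, read 0.66, 0.83, 0.84 and 0.66, and its other element rose by less, to 0.30. The small proteoglycan gene Dcn read 0.58, 0.68, 1.16 and 0.50, highest in mouse 3, with the wild-type channel detected on 4 of 8 arrays. Sparc, a collagen-binding matrix protein, was called on 2 elements at 0.58 and 0.62, the one at 0.62 with the wild-type channel detected on 4 of 8 arrays. The element at 0.58 is named Sparc by the platform annotation and Dpp10 in the study's table. Below the fold limit, Col18a1 (0.44), Pcolce (0.41), Bgn (0.33), Col6a1 (0.31), Lox (0.28) and Col4a1 (0.23) rose. Timp1 belongs to this list and to the tubular injury list. Col1a2, the other chain of type I collagen, averaged 0.24 on its brightest element and was called at 0.68 and 0.54 on its other 2. Tnc, Lamc1 and Col5a2 averaged 0.06, 0.04 and 0.00. Ccn1, the member that fell, is described with the immediate early genes.

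Cell adhesion genes moved in the same direction in smaller number. Of 17 tested, 6 rose and none fell. Itgav, the alpha V integrin subunit that binds fibronectin, read 0.98, 0.93, 0.69 and 0.36 in mice 1 to 4 and was called. Cdh1, the E-cadherin gene, averaged 0.54 and was called, with 0.48 without mouse 1 and 0.40 without background correction, both short of the fold limit. Its mutant channel was detected on 7 of 8 arrays and its wild-type channel on 3. Emb, a cell-surface glycoprotein of the immunoglobulin family, was called on both of its elements at 0.81 and 0.79. In the actin cytoskeleton list 9 of 33 genes rose, none fell and 3 were called. Actg1, a cytoplasmic actin, was called at 0.67, 0.51, 0.93 and 0.64 in mice 1 to 4, while its other 3 elements averaged 0.32, 0.30 and -0.14.

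Among markers of cells other than tubule, leukocyte and fat-cell genes moved with these groups. Endothelial genes had 1 rise and 2 falls of 15, markers of pericytes, mesangium and smooth muscle 1 rise of 8 and podocyte markers 1 rise of 5. Of 8 tested leukocyte genes 7 lay above 0, 4 rose (Lyz2 0.35, Cd74 0.32, Ctss 0.26 and Itgam 0.24) and none was called. Cd74 is the invariant chain of MHC class II and Lyz2 the lysozyme of macrophages. Among fat-cell genes Fabp4, the fatty acid carrier of adipocytes, read 0.74, 0.76, 1.20 and 0.58, and Ucp1, the uncoupling protein of brown fat, read 0.60, 0.38, 0.62 and 0.55. The Ucp1 call ended with print-tip loess (0.47). Car3, abundant in fat and muscle, averaged 0.49 but read 0.92 in mouse 1 and 0.14 in mouse 4, and averaged 0.35 without mouse 1, short of the fold limit. Its call also ended without background correction (0.47), with print-tip loess (0.43) and with scaling between arrays (0.47). Pparg, the master regulator of fat-cell formation, fell to -0.46. Over the 6 tested genes of that list 3 rose, 1 fell and 3 were called higher. The fat-cell list stood 0.42, 0.37, 0.45 and 0.01 above all named genes in mice 1 to 4. The medians of the leukocyte and fat-cell lists were 0.25 and 0.35, and 0.09 and 0.13 with no limit on dim spots. The part of attached fat in these values was not tested.

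Of 16 tested genes of interferon response and antigen presentation 14 lay above 0, 5 rose and 1 fell, with a median of 0.17, which was 0.08 with no limit on dim spots and 0.32 at 3 times background. Ly6e, an interferon-induced surface protein, was called on 2 elements at 0.59 and 0.53. The element at 0.53 read 0.46 without mouse 1 and 0.47 without background correction, short of the fold limit. Ifitm1 (0.46), Bst2 (0.33) and B2m (0.29) rose below the fold limit. Ly6e is also the riser of the endothelial list, and Cd74 belongs to this list as well as to the leukocyte genes. Tap1, a subunit of the peptide transporter, was the exception at -0.71, -0.71, -0.97 and -0.74 in mice 1 to 4. Its element is of the clone set MG-4, described below. Of 19 genes in the NF-kB and chemokine list, 3 rose, Lcn2 of the tubular injury list among them, and 2 fell. The pathway components Rela, Nfkb2, Relb and Nfkbia averaged 0.15, 0.09, -0.02 and -0.06 without passing. Cxcl12, a chemokine of stromal cells, read 0.60, 0.88, 0.88 and 0.62. Ccl28, an epithelial chemokine outside that list, was called lower at -0.73, -1.17, -0.48 and -1.18, with the mutant channel detected on 6 of 8 arrays.

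Glutathione and stress-defence genes rose in part. Gsto1, a glutathione transferase of the omega class, read 0.95, 0.50, 0.93 and 1.20 in mice 1 to 4 (mean 0.90), but its other element averaged -0.02. The mutant channel of the called element was detected on all 8 arrays and the wild-type channel on 4. Gsta4, which clears lipid peroxidation products, was called on both elements at 0.83 and 0.77, with the wild-type channel detected on 7 and 4 of 8 arrays. Gclc, the catalytic subunit of glutathione synthesis, averaged 0.50 and read 0.46 without mouse 1, 0.48 without mouse 2 and 0.44 without background correction, all short of the fold limit. Gsta3 (0.48), Gsta2 (0.47) and Gstp1 (0.39) rose just below the fold limit. Over the list of 39 genes 7 rose, 2 fell and the median was 0.09. Mt1, the zinc-binding metallothionein, read 0.83, 0.91, 1.05 and 0.74 in mice 1 to 4, a 1.84-fold mean (adjusted p = 5.51e-05 by limma). Atf5, a transcription factor of stress responses, averaged 0.87 but ran between 0.45 in mouse 2 and 1.39 in mouse 1, with the mutant channel detected on 7 of 8 arrays and the wild-type channel on 3. Serpina1b, an alpha-1-antitrypsin gene of a family of close copies, read 0.91, 0.57, 1.26 and 0.77, and its other element rose to 0.28. Abcc4, an efflux pump of the apical tubule membrane, was even among mice at 0.69, 0.66, 0.68 and 0.57.

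Lipid genes did not shift as a group, and 1 of them stood apart. Scd1, the desaturase that makes monounsaturated fatty acids, read 1.17, 0.93, 1.41 and 0.86 in mice 1 to 4, a mean of 1.09 ± 0.25 (SD, n = 4; 2.13-fold, adjusted p = 5.51e-05 by limma). Of 33 tested genes of fatty acid and sterol synthesis 5 rose, none fell and only Scd1 was called. The list median was 0.01, equal to that of all named genes. Scd2 (0.48), Elovl5 (0.36) and Hmgcs1 (0.26) were among those that rose.

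**Figure D2:**
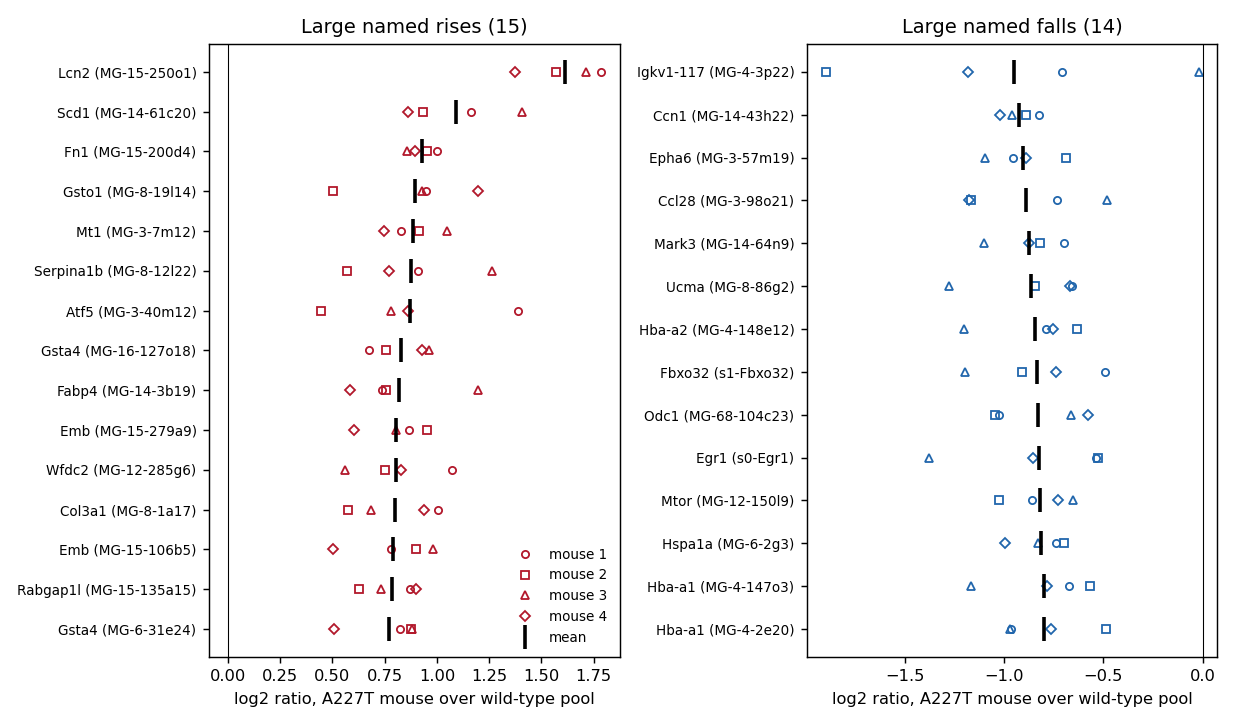
Log2 ratio over the wild-type pool in each of the 4 Umod A227T mice (open symbols) and their mean (black bar) for 15 named elements with the largest rises (left) and 14 among those with the largest falls (right), with the same sign in all mice. Lcn2 lies at 1.38 or above in every mouse, and Igkv1-117 runs between -1.90 in mouse 2 and -0.02 in mouse 3.

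The cytosolic ribosomal proteins showed a small shift in every mouse. Of 59 tested genes 56 lay above 0, 21 rose, none fell and none passed 1.4-fold. The list stood 0.20, 0.17, 0.21 and 0.18 above all named genes in mice 1 to 4. Rps4x (0.45), Rps14 (0.45), Rps21 (0.43), Rps24 (0.39), Rpl9 (0.36) and Rpl41 (0.36), parts of the small and large subunits, were highest, and Rpl5 and Rpl7, the brightest, averaged 0.33 and 0.23. Rpl6 had 1 element at 0.16 and another that fell to -0.39. Oxidative phosphorylation genes, which were about as bright (median log2 intensity 9.41, against 9.77), gave 0 of 63 genes past limma's test and a median of 0.02. In that list 6 genes had an unadjusted p under 0.05, all higher, and the highest ratio was 0.27, so that none could be called by SAM with the same fold limit. Mitochondrial ribosomal proteins had 2 rises and 1 fall among 50 genes and a median of 0.05. With median centring the ribosomal list stood 0.29 and the oxidative phosphorylation list 0.09 above all named genes. cDNA clones of ribosomal proteins can also bind transcripts of close copies, so single members are uncertain.

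**Figure D3:**
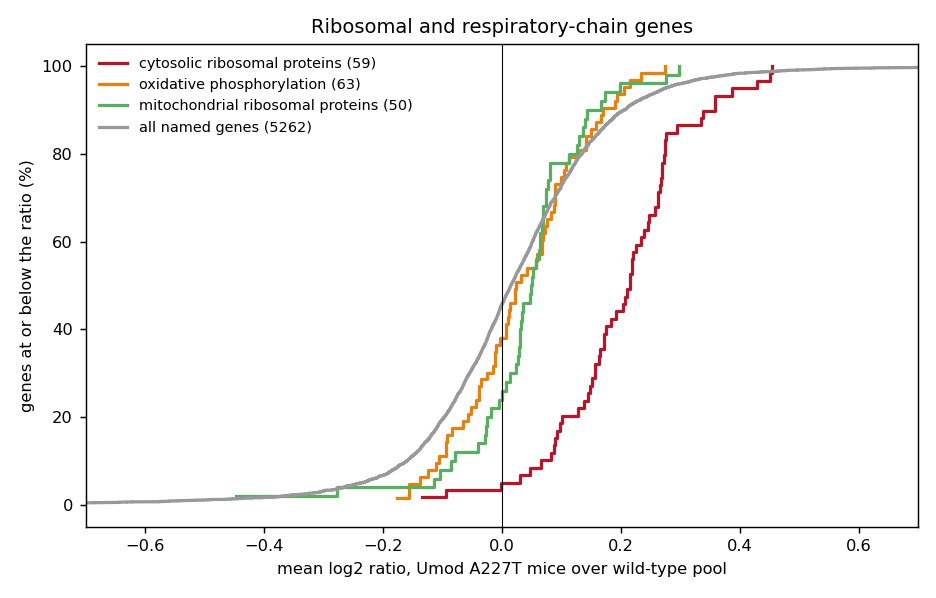
Cumulative percentage of genes (vertical) at or below a mean log2 ratio of Umod A227T mice over the wild-type pool (horizontal). Cytosolic ribosomal proteins (59 genes, median 0.21) lie to the right of oxidative phosphorylation genes (63 genes, median 0.02), mitochondrial ribosomal proteins (50 genes, median 0.05) and all named genes (5262, median 0.01).

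In whole-kidney RNA, genes of the ER, where thick ascending limb cells retain mutant uromodulin, changed about as often as all named genes. The study describes this segment as a small fraction of the kidney. It proposes that changes there are masked for genes also expressed in other segments, and it cites earlier work reporting an unfolded protein response in both lines. Values of the whole organ cannot decide on a response within these cells. Of 36 tested genes of ER folding and the unfolded protein response 2 rose, 1 fell, none was called and the median was -0.01, while 6.58% of all named genes rose and 4.48% fell. Dnajc10, an ER disulphide reductase, rose to 0.47 and Ssr1, a subunit at the translocon, to 0.33. Serp1, which protects membrane proteins under ER stress, fell to -0.39 on its brightest element and rose to 0.40 on another, so its direction is not settled. Hspa5, the gene of the chaperone BiP, averaged -0.03, and Xbp1, Atf4, Trib3 and Herpud1 averaged 0.26, 0.13, 0.28 and 0.07 without passing. Calr (-0.15) and Hsp90b1 (-0.09) did not pass either. In the proteasome list 3 of 31 genes rose and none fell, with a median of 0.04.

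Segment markers showed no common shift of the thick ascending limb. Of 9 tested genes of that segment 2 rose, 1 fell and none was called, and the median was 0.04. Cldn19, a claudin of the tight junction that carries magnesium and calcium, rose to 0.32, while Ppp1r1a fell to -0.35 on its brightest element and averaged -0.01 on another. Of 8 tested markers of principal cells of the collecting duct 4 lay above and 4 below 0, with 2 rises, no fall and a median of 0.00. The risers were Aqp2, the vasopressin-regulated water channel, at 0.48 and Hsd11b2, which shields the mineralocorticoid receptor from glucocorticoids, at 0.41. Car15, a membrane-bound carbonic anhydrase, was called at 0.74, 0.83, 0.44 and 0.84 in mice 1 to 4.

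Markers of the S1 and S2 proximal tubule lay lower. Of 12 tested genes 10 were below 0 and 4 fell, with a median of -0.12. The median was 0.03 with median centring of the arrays, so the direction of this list depends on the scaling. Kap read -0.44, -0.40, -0.38 and -0.21, Slc22a6, the organic anion transporter OAT1, averaged -0.26, Amn, the membrane anchor of cubilin, -0.28 and Slc13a3, a dicarboxylate carrier, -0.23. Androgen-responsive kidney genes, which share Kap and Cyp4b1 with that list, had 10 of 11 members below 0, 4 falls, 2 calls and a median of -0.11, which was -0.02 with median centring. Odc1, the first enzyme of polyamine synthesis and strongly androgen-driven in mouse kidney, fell to -1.02, -1.04, -0.66 and -0.58 in mice 1 to 4, and its other element to -0.48. Of 14 tested S3 proximal tubule genes 7 lay above and 7 below 0, with 3 rises and 2 falls. The S3 median was 0.0007, and 0.12 with median centring. Slc22a7, an organic anion transporter of the S3 list, was called at -0.50 but read -0.02 in mouse 4. Its call ended without mouse 1, 2 or 3 (-0.45, -0.45 and -0.46), with median centring (-0.39) and without background correction (-0.46).

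Immediate early genes, which are switched on within minutes by growth signals and tissue handling, were lower. Of 11 tested 5 fell, none rose and 4 were called, with a median of -0.14, while 3 lay above 0, up to 0.19, without passing. Ccn1, a secreted matricellular protein, read -0.82, -0.89, -0.96 and -1.02 in mice 1 to 4, a mean of -0.92 ± 0.09 (SD, n = 4; adjusted p = 3.41e-05 by limma), and its other element fell to -0.34. Egr1, a zinc-finger transcription factor, read -0.54, -0.53, -1.38 and -0.85. Jun and Fos, partners in the AP-1 factor, averaged -0.58 and -0.50, and their calls ended without mouse 2 (-0.47) and without mouse 1 (-0.43). The Fos call also ended without background correction (-0.43), with median centring (-0.43) and with scaling between arrays (-0.48). Dusp1, a phosphatase of MAP kinases, fell to -0.40. Some heat-shock genes fell as well. Hspa1a, the inducible HSP70, read -0.74, -0.70, -0.83 and -0.99. An element named for its close copy Hspa1b averaged -0.14, and clones may bind both. Ahsa1, an activator of HSP90, read -0.59, -0.87, -0.74 and -0.65, with the mutant channel detected on 2 of 8 arrays. Cryab (-0.31) and Hsp90aa1 (-0.27) fell below the fold limit. In the list of 24 chaperone genes 4 fell, 1 rose and 9 lay above 0. That list had a median of -0.03, and 0.06 with median centring.

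Haemoglobin genes fell together. The 8 elements named Hba-a1 or Hba-a2, the alpha-globin pair, averaged between -0.66 and -0.85 and were all called. Hbb-b1, a beta-globin gene, read -0.61, -0.73, -0.86 and -0.80 in mice 1 to 4. Mouse 3 was lowest on each of these elements, at -1.20 on the lowest of them. Alas2, the red-cell enzyme of haem synthesis, averaged -0.10 and Bpgm 0.04, and neither passed. In the study, RT-qPCR of other homozygous A227T mice found Hba-a1 transcript similar to that of wild type, so the fall was not seen there. The share of the array values that comes from blood left in the organ was not tested. The promoters of the alpha-globin pair, which lie outside the transcript, are alike. They are given here as RefSeq has them in GRCm38.p6, 250 bases before each start on the plus strand, chr11:32283422-32283671 for Hba-a1 and chr11:32296242-32296491 for Hba-a2, with the CCAAT box in capitals.
Hba-a1: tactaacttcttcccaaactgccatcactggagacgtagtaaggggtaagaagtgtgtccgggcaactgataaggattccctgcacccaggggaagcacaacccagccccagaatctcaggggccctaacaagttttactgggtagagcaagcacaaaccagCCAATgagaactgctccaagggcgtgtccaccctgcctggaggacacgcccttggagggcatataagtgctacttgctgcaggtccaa
Hba-a2: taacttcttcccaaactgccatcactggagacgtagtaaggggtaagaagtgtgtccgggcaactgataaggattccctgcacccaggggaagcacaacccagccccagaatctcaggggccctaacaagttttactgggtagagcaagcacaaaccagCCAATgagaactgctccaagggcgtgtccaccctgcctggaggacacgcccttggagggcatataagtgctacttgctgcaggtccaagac
The 247 bases that align carried no mismatch, and the windows are offset by 3 bases at each end. The letters CCAAT, searched on both strands, occur once in each window and in 33.8% of the 32851 promoters of that table. The transcripts of the pair were not aligned here. A cDNA clone of 1 alpha-globin gene is not taken to separate the pair, and their elements are read here as 1 signal.

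Further falls came from elements whose names do not form a group. Mark3, a polarity kinase, read -0.70, -0.82, -1.10 and -0.88, but its other element averaged 0.18. Fbxo32, a muscle ubiquitin ligase subunit, and Ucma, a cartilage matrix protein, averaged -0.83 and -0.86. Il6st, the gp130 receptor subunit, was called on 1 element at -0.67 and averaged -0.04 on the other. The element at -0.82 that the platform annotation names Mtor is named Angptl7, an angiopoietin-like secreted protein, in the study's table, and Angptl7 lies within the bounds of Mtor in RefSeq. It read -0.86, -1.03, -0.65 and -0.73 in mice 1 to 4, and the other Mtor elements averaged -0.44 and -0.13. An element at -0.67 is likewise named H3f3a by the platform and Hba-a1 by the study.

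Mouse 3 was farthest from 0 on 54 of the 94 elements called lower, mouse 1 on 19, mouse 2 on 11 and mouse 4 on 10. Called falls were also uneven across the clone collection: 24 of 174 tested elements whose names begin with MG-4 were called lower and 1 higher, 8 of the 24 being globin elements. The called elements of Tap1, Il6st, Cpa1 and Igkv1-117 are of this set too, and so is that of Cd24a, the 1 called higher. What sets these clones apart was not tested. All 4 tested elements of set MG-20 were below 0. Of its 3 unnamed elements MG-20-1c17 and MG-20-1i13 were called at -1.91 and -1.0, and MG-20-1m17 fell to -0.41, below the fold limit. MG-20-1c17 read -1.69, -1.73, -2.24 and -1.98 in mice 1 to 4, the largest change of the comparison. The mutant channel was detected on 6 of 8 arrays for MG-20-1c17 and on 1 of 8 for MG-20-1i13, and the wild-type channel on all 8. The named member of the set, Cela2a, a pancreatic elastase, fell to -0.46, and Cpa1, a pancreatic carboxypeptidase, to -0.66, while Clps, the pancreatic colipase, averaged 0.19 without passing. Ttr, the thyroid hormone carrier transthyretin, was called at -0.27, -0.70, -0.16 and -0.86, and its call ended without mouse 2 (-0.43) or mouse 4 (-0.38), with median centring (-0.33), with print-tip loess (-0.39) and in the submitters' processed ratios (-0.40). Igkv1-117, an immunoglobulin light-chain gene segment, read -0.71, -1.90, -0.02 and -1.18, a spread that none of the other called elements reached. The part of attached pancreas or of plasma cells in these values was not tested.

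**Figure D4:**
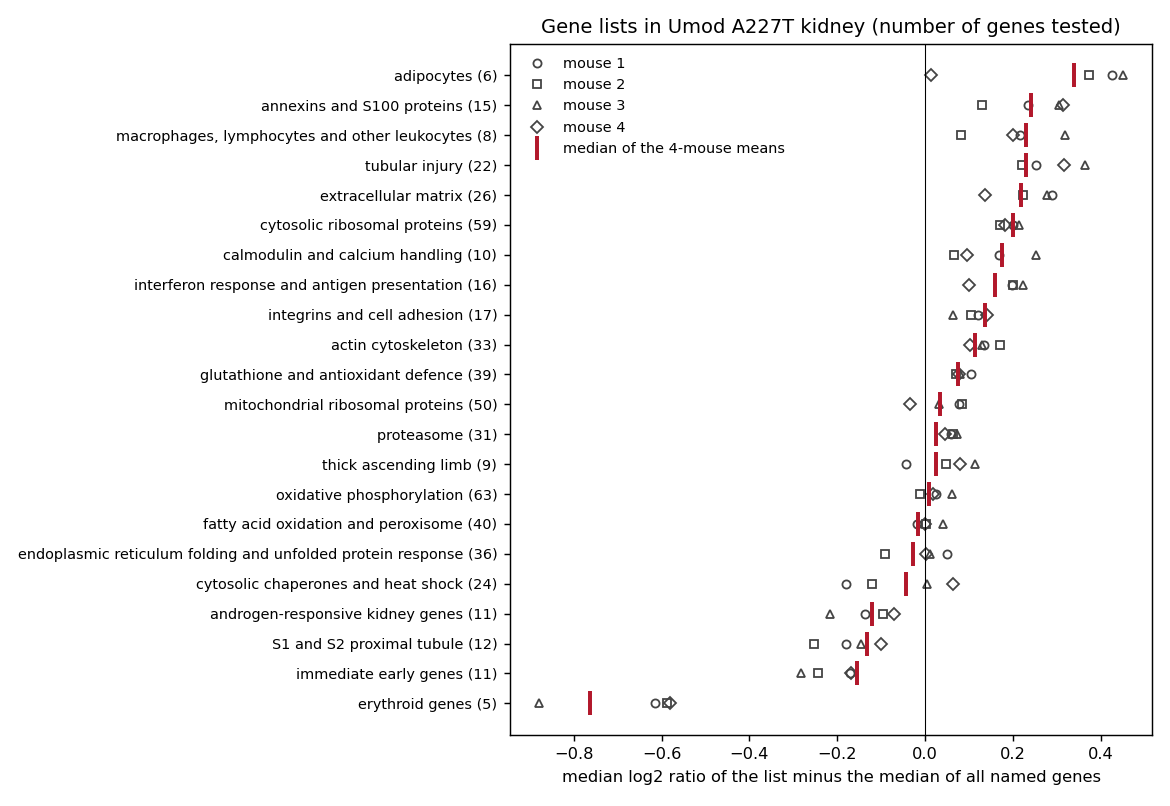
Median log2 ratio of 22 gene lists in Umod A227T kidney, minus the median of all named genes, for each mouse (open symbols) and for the means over 4 mice (red bar), with the number of genes tested in brackets. The ribosomal list lies between 0.17 and 0.21 in all 4 mice, and the fat-cell list has mouse 4 at 0.01.

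The last comparison asked where the A227T ratios differed from those of the C93F line. It covered 2186 elements that passed the detection limit in both lines and held the same clone name. Line, zygosity, age and pool coincide, so their parts cannot be told apart. Of the 2186 elements 115 (5.26%) differed by over 1.4-fold at an adjusted p under 0.10, 46 higher (2.1%) and 69 lower (3.16%) in A227T. With median centring the split was 145 higher and 30 lower.

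Among the elements higher in A227T was Ghitm, a mitochondrial inner membrane protein. It read 0.65, 0.54, 0.93 and 0.39 in A227T mice and -0.07, -0.23, -0.31 and -0.14 in C93F mice. The difference was 0.81 ± 0.11 (SE, adjusted p = 1.34e-04 by limma), on an element picked for the size of its difference. Ivns1abp, a kelch protein, averaged 0.77 in A227T and -0.04 in C93F mice. Slco1a6, an organic anion carrier, averaged -0.23 in A227T and -1.15 in C93F mice, so that the larger departure from the pool lay in C93F. Fech, which puts iron into haem, averaged 0.45 in A227T and -0.23 in C93F mice.

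The largest differences downwards were on elements named Epha6, an ephrin receptor, and Mid1, a microtubule-bound ubiquitin ligase. The Epha6 element, which the study's table lists under a sequence accession, read -0.96, -0.69, -1.09 and -0.89 in A227T mice and 0.35, -0.08, 0.18 and 0.37 in C93F mice. Mid1 averaged -0.69 in A227T mice and 0.30 in C93F mice, a difference of -0.99 (adjusted p = 1.01e-05 by limma), while its other element averaged -0.15 in A227T mice. Ap2b1, an adaptor of clathrin coats, and Rimbp2, a presynaptic scaffold, averaged -0.71 and -0.63 in A227T against 0.19 and 0.24 in C93F mice, and the other Ap2b1 element averaged 0.16 in A227T mice. Umod differed by 0.25, below the fold limit, with -0.07 in A227T and -0.32 in C93F mice. Scd1 was high in both lines, at 1.09 in A227T and 0.92 in C93F mice, a difference of 0.17 with an adjusted p of 0.306 by limma.

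**Figure D5:**
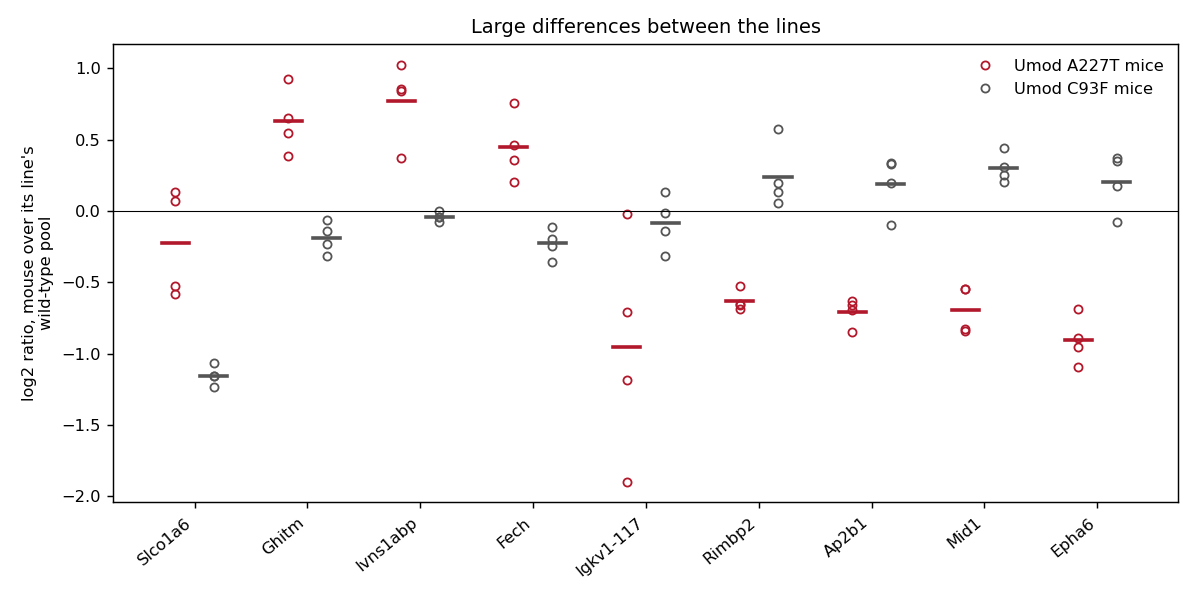
Log2 ratio over the line's own wild-type pool (vertical) in each Umod A227T mouse (red) and each Umod C93F mouse (grey), with bars at the means, for 9 named elements with large differences, 4 higher and 5 lower in A227T. Ghitm lies at 0.39 or above in all A227T mice and at -0.07 or below in all C93F mice.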

How the data were processed

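Whole-kidney RNA, from 4 mice of each mutant line, was hybridised against a wild-type pool on 2 dye-swapped cDNA arrays per mouse. The deposited scans hold the median intensity of spot and local background in both channels, which the authors did not normalize; the image software is not given in the sources used here. The authors also deposited log2 ratios per mouse, made with a check against background (signal over noise of 2) and of dye-flip consistency, with scale, centring and direction unstated; these served as an alternative and to set the sign. Scans and deposited ratios correlated at 0.93 to 0.97 per mouse. RNA extraction is described differently in the labels and in the study's methods, and the number of animals in the pool differs between them too.

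Intensities were corrected with normexp (offset 50) and normalized by loess within each array (limma 3.58.1, R 4.3.3), dye swaps and spots of a clone were averaged, and the mean over mice was tested against 0 with lmFit and eBayes. Elements needed 2 times background in 1 channel on both arrays of at least 3 mice. The limits for a call (Benjamini-Hochberg adjusted p below 0.10, change above 1.4-fold) are those of the study, which used SAM. The p-values measure the spread between these 4 mice. The array number limits precision, and no scan date or slide was used as a batch. The fit was tested on simulated data. Gene names came from the platform annotation, updated to RefSeq symbols through the Entrez ID, then from clone names in the scans and the study's tables. At 217 array positions the clone name differed between the scans of the lines, and these positions were left out of the line difference.

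The 64 gene lists use the brightest tested element of each gene and have no test of their own. Members and lists were chosen with earlier results of these data known. Named genes were Umod, the 15 largest called rises and falls with 1 sign in all mice, the 12 largest each way outside the study's tables, up to 6 changed and the 2 brightest members of a list, the 5 largest line differences each way, and other elements of those genes. Further list members were named after their values were seen, and a few genes that the rule picks are not reported here. Alternatives covered background correction, normalization, the limit on dim spots, the dye model, the test, thresholds, the deposited ratios and leaving out each mouse.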

Additional observations from a re-analysis of the deposited data

Results flagged for a closer look

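In 4 of 92 named elements 1 of the 4 A227T mice stood apart from the others by Dixon's test at the 95% level, and chance alone gives about 5%. The Gsta4 element that averaged 0.77 was lower in mouse 4, at 0.51, against 0.82, 0.88 and 0.88 in mice 1 to 3. Slc22a7 was near 0 in mouse 4, at -0.022, against -0.68, -0.68 and -0.63. Zfp12, a zinc-finger gene, was lowest in mouse 3 at -0.95, against -0.46, -0.45 and -0.40 in mice 1, 2 and 4, and its call ended without that mouse (-0.44). Tap1 was lowest in mouse 3 at -0.97, against -0.71, -0.71 and -0.74.

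Among 63 list medians 1 was flagged by the same test, and chance alone gives about 5%. It was that of the erythroid genes, with mouse 3 at -0.86, against -0.61, -0.57 and -0.57 in mice 1, 2 and 4.

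Of the largest called differences between the lines, 9 are given here, tested by limma over all 8 mice. Those higher in A227T mice were Slco1a6 (difference 0.93, adjusted p = 3.25e-04), Ghitm (0.81, adjusted p = 1.34e-04), Ivns1abp (0.81, adjusted p = 2.29e-04) and Fech (0.67, adjusted p = 5.15e-04). Those lower in A227T mice were Epha6 (-1.11, adjusted p = 1.03e-05), Mid1 (-0.99, adjusted p = 1.01e-05), Ap2b1 (-0.90, adjusted p = 2.94e-05), Rimbp2 (-0.87, adjusted p = 4.93e-05) and Igkv1-117 (-0.87, adjusted p = 0.0256).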

How the results depend on the processing

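Of 91 named called elements none reversed under any alternative run on them. All 91 exceeded 1.4-fold in the main run, so a reversal was unlikely. The literal dye reading, which would turn every sign, was not among these runs. The number that lost its call was 14 without background correction, 8 with median centring, 6 with print-tip loess and 3 to 10 when a mouse was left out. Local background subtraction gave 295 called elements, 161 of them higher. Without the fold limit there were 1002, 577 higher and 425 lower. Median centring gave 143 higher and 60 lower, and the deposited ratios 139 higher among 4904 tested. Leaving out each mouse gave 161 to 201 called, 74 to 94 higher and 80 to 111 lower. Reading the dyes literally from the scan names would make 94 higher and 75 lower. SAM gave 170 calls, but its added constant was the largest standard error of the array, so it ranked by mean ratio and is not separate evidence. Umod, at -0.07, changed sign with median centring (0.072) and in the deposited ratios (0.0065), past no test either time. Keeping only elements with the same sign in both dye swaps, which leaves 2814, took the median of the thick ascending limb list to 0.32 and that of the immediate early genes to -0.54, and with no limit on dim spots the erythroid median was -0.43. The cause of these shifts was not tested.

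The difference between the lines was called for 175 elements with median centring (145 higher and 30 lower in A227T) and for 65 (20 and 45) among the 422 at 3 times background. Leaving out each mouse gave 103 to 136 called, 44 to 59 higher and 53 to 82 lower. With the replicate number as a block, 115 were called (46 and 69) as without it, since the fold limit set the count. Same-numbered mice of the lines deviated together with correlations of -0.06 to 7.76e-07, so they share only a number.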

Other observations

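Of the 169 called elements 28 carried no gene name, 21 lower and 7 higher. The called element with the smallest spread among mice was an unnamed one at -0.75, -0.73, -0.77 and -0.70, and the highest unnamed element read 0.75, 0.81, 0.94 and 1.0 in mice 1 to 4.

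Several lists had no member past limma's test. Of 19 cell cycle genes none passed and 4 had an unadjusted p under 0.05, all higher, with a list median of 0.07. None of 6 circadian clock genes and none of 10 hypoxia response genes passed, and none had an unadjusted p under 0.05. In the same arrays 7 of 72 splicing and RNA-binding genes rose and 1 fell, with 53 above 0. Of 45 tubulin and microtubule genes 6 rose and none fell, while their median was -0.01.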
